A study of Mus musculus with 2 samples.

Results

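Interferon-high cDC2 are conventional dendritic cells (DCs) type 2, or cDC2, of the mouse lung whose RNA was rich in interferon-stimulated genes. They were selected on measured values in droplet-based single cell RNA sequencing, in which each messenger RNA molecule is counted by a unique molecular identifier (UMI). A cell was taken as cDC2 when Cd209a, Mgl2, Clec10a and Ms4a4c together gave at least 3 UMIs, C1qa, C1qb and C1qc gave fewer than 3, Fscn1, Xcr1, Cd79a and Cd3g gave 0, and Chil3, Ear1 and Krt79 gave fewer than 10 per 10000 UMIs. Members had at least 20 UMIs per 10000 from the 6 genes Ifit1, Ifit2, Ifit3, Isg15, Rsad2 and Cxcl10, a sum called the interferon score here. Of 10901 barcodes, 10088 passed the filters of at most 20% mitochondrial UMIs, at most 20000 UMIs and at least 500 genes, 1246 of these were cDC2, and 95 were members. The other 1151 cDC2 are called cells below the cut.

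The cells came from lungs of female C57BL/6J mice in 3 treatments. Asthma mice received ovalbumin (OVA) with the aluminium adjuvant Alum by intraperitoneal injection and then intranasal OVA, tolerance mice inhaled OVA before that protocol, and control mice received Alum without OVA and intranasal saline. The sort took DCs from cells high in CD11c and MHC-II, in a gate negative for MerTK, CD64 and Ly6C, and macrophages were sorted as well. Each treatment was 1 pool of mice, marked with a hashtag antibody, stained with a CLEC12A antibody tag and spread over 2 lanes. The lanes are technical replicates and the members were chosen from the same UMIs that describe them, so the values below carry no test. Values of the 4 libraries that hold members are given in the order asthma lane 1, asthma lane 2, tolerance lane 1 and tolerance lane 2. Levels are in CPM, the UMIs of a gene per 1000000 UMIs of the class. Log2 folds are given as asthma, then tolerance, with 1 UMI added to each sum. Intervals are at 95% and cover counting error only.

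Type I and type III interferons act through receptors that activate JAK kinases, and a complex that includes STAT2 and IRF9 then binds interferon-stimulated response elements in promoters. Interferon-gamma has a receptor of its own. The induced genes encode antiviral effectors such as the IFIT, OAS and MX proteins, sensors of viral nucleic acid, guanylate-binding proteins, the chemokines CXCL9 and CXCL10, which attract T cells with the receptor CXCR3, and parts of MHC class I presentation. cDC2 take up antigen in the airways and present it to CD4 T cells, and CD64, the high affinity Fc receptor encoded by Fcgr1, is also carried by macrophages and monocyte-derived cells.

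Promoters are shown for 3 of the genes that set the interferon score and for Fcgr1, to let the response element be seen. Each runs from 250 bases before to 50 bases after the start of the gene in RefSeq, on GRCm38.p6. Capitals mark matches to the core of the response element, GAAANNGAAA, or its reverse complement TTTCNNTTTC, which may overlap. Ifit3, an antiviral effector gene, lies on the plus strand and its promoter is at chr19:34583279-34583578 with 2 matches, which begin 156 and 122 bases before the start. Isg15 encodes a ubiquitin-like protein and lies on the minus strand, and its promoter at chr4:156200769-156201068 has 3 overlapping matches, the first 78 bases before the start. Cxcl10, on the minus strand at chr5:92348840-92349139, has 1 match 213 bases before the start. Fcgr1, on the minus strand at chr3:96293920-96294219, has 0 matches in this window.
Ifit3: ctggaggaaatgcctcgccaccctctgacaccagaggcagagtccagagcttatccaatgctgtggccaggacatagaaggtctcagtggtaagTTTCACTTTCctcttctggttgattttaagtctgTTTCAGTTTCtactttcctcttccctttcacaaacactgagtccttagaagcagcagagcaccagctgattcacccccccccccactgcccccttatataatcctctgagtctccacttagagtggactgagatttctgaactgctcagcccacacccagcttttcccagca
Isg15: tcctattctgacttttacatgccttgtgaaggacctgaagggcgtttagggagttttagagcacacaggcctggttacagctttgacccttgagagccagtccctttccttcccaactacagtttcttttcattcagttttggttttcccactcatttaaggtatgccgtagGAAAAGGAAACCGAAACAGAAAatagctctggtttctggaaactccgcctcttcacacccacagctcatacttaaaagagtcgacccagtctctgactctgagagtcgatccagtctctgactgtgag
Cxcl10: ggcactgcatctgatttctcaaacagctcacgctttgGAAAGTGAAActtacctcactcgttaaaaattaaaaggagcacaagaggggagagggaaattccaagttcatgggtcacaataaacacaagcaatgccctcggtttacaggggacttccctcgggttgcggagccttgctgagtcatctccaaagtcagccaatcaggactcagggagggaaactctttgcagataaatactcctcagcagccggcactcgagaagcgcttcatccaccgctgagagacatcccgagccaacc
Fcgr1: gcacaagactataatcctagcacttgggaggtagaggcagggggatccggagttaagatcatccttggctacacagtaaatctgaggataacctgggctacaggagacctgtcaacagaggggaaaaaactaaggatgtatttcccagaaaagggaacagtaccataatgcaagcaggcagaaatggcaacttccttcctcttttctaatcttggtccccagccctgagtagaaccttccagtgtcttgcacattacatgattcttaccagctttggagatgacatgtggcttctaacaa

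Every one of the 95 members came from a pool exposed to OVA. The asthma pool held 17 and 20 members in its lanes and the tolerance pool 28 and 30, whereas the control pool held 0. Members were 5.80% of the 638 asthma cDC2 (interval 4.12% to 7.91%) and 13.2% of the 440 tolerance cDC2 (10.2% to 16.7%). The lanes gave 5.38% and 6.21% in asthma and 13.1% and 13.3% in tolerance, so both tolerance lanes lay above both asthma lanes. The 0 of 168 control cDC2 allow a share of up to 1.79% by the limit of 3 counts, and their exact interval reaches 2.17%. Of all cells past the filters, members were 0.919% in asthma and 2.15% in tolerance. With 1 pool for each treatment, the treatment and the pool of mice cannot be told apart.

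In percentage points, the difference in share between the pools was smaller among cells that carried the lectins than over all cDC2. Of the members, 43 had at least 3 UMIs of the C-type lectin genes Cd209a, Mgl2 and Clec10a (called lectin members) and 52 had fewer and passed only with Ms4a4c, which encodes a membrane protein of the MS4A family (called Ms4a4c-gated members). Of these 52, 34 had no lectin UMI. Lectin members were 3.75% of the asthma cells with at least 3 lectin UMIs (2.34% to 5.68%) and 6.36% of those of the tolerance pool (4.03% to 9.47%), intervals that overlap. The lanes gave 2.81% and 4.73% against 5.88% and 6.82%. Among cells that passed only with Ms4a4c, 16 of 78 asthma cells (20.5%, interval 12.2% to 31.2%) and 36 of 94 tolerance cells (38.3%, 28.5% to 48.9%) were members. These intervals overlap as well. Such cells were 78 of the 638 asthma cDC2 and 94 of the 440 tolerance cDC2, and the part of this mix in the shares over all cDC2 was not tested. Cells that passed only with Ms4a4c were 120 of the 983 cells below the cut in the asthma and tolerance pools, against the 52 of 95 members. Ms4a4c, which lies at chr19:11404770-11427246 and served as a gate gene, stood at 2013, 2306, 1876 and 2058 CPM in members, 833, 849.9, 737 and 669 CPM below the cut and 277 CPM in control cDC2. Its level in the asthma and tolerance pools was 708 CPM in cells without a UMI of the 6 score genes and 3117 CPM in those with a score of 100 or more, so the gate and the cut are not independent for cells that passed only with Ms4a4c, and the part of this in their share was not tested.

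**Figure D1:**
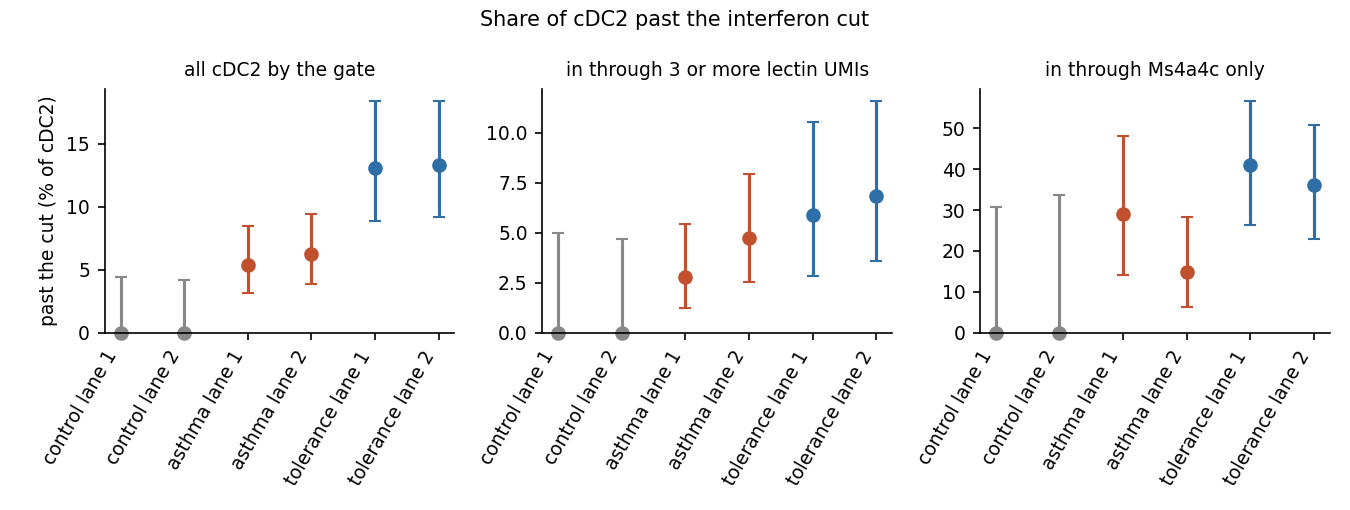
Share of cDC2 past the interferon cut in percent, as 1 point for each of the 6 libraries with its exact binomial 95% interval as a bar, over all cDC2 (left), cells with at least 3 lectin UMIs (middle) and cells that passed only with Ms4a4c (right), on separate axes. Both tolerance lanes are above both asthma lanes in each panel, and the control lanes are at 0. The intervals of asthma and tolerance lanes overlap in the middle and right panels, and in the left panel those of asthma lane 2 overlap with tolerance.

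The cut runs through a continuum. Member scores had a median of 48.4 per 10000 in asthma (20.1 to 532) and 45.6 in tolerance (21.1 to 300.3), while most of those below the cut had no UMI of the 6 genes (58.1% in asthma and 55.8% in tolerance). The lowest members scored 20.1 in asthma, from 17 UMIs among 8472, then 21.1 and 21.2, and the highest cells outside scored 19.9, 19.8 and 19.8. There were 27 cells between 15 and 20, and 16 between 20 and 25. Between 10 and 15 lay 41 cells, 4 of them from the control pool, and 19 members scored 100 or more. Lectin members scored higher, with a median of 66.3, than Ms4a4c-gated members with 42.4.

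The score rested most on Isg15 and was uneven among members. All 95 members had an Isg15 UMI, which the cut does not require, and 49 would still pass without this gene, against 87 to 90 without any other of the 6. A median of 5 of the 6 genes were detected per member, with all 6 in 39 members and at most 3 in 18. Isg15 stood at 3443, 3250.0, 2709.8 and 3383 CPM in members and 124, 148, 156 and 143 CPM below the cut. Cxcl10 stood at 3186, 1800.0, 1565 and 2050.2 CPM, with asthma lane 1 highest, but 39 members had no Cxcl10 UMI and 5 cells held 46.2% of its 1497 UMIs. These levels are what the rule selected.

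Members had more UMIs per cell than the cells below the cut in asthma and fewer in tolerance. Their median was 7826 UMIs in asthma and 7692 in tolerance, against 7008 and 8017.5 below the cut and 5565 in control cDC2. They had 2201 and 2282.5 genes per cell at the median, against 2333 and 2528.5, and 2.07% and 2.13% mitochondrial UMIs, against 2.91% and 3.14%. A member library held between 104836 and 261921 UMIs in all. When each cell was thinned to 2000 UMIs and the rule applied again, 87 of 960 cDC2 passed the cut, and 69 of these were members before. Between 97.9% and 98.3% of the hashtag UMIs of members were of their own treatment, no barcode was shared between libraries, and 0 members were among the 2% of cells with the highest doublet scores.

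Set against their label, the members held the genes that DCs share at mixed levels, and their cDC2 genes were lower or mixed. Flt3, the receptor for the DC growth factor FLT3L, stood at 124, 27.8, 77.7 and 45.8 CPM in members and 77.0 to 92.3 CPM below the cut, and Zbtb46, a transcription factor of conventional DCs, at 105, 27.8, 31.1 and 19.1 against 33.4 to 42.9 CPM. The member libraries spanned the values of the others for both genes. Itgax, which encodes CD11c, stood at 206 to 259 against 246 to 320.0 CPM and Dpp4 at 104 to 172 against 73.3 to 91.0 CPM. Among the genes that mark cDC2, Irf4, a transcription factor of this lineage, was detected in 18.9% of members and 37.2% of cells below the cut, Itgam (CD11b) in 25.3% against 41.2%, and Sirpa in 55.8% against 74.8%. Thinned to 2000 UMIs, the shares were 10.5% and 14.5% for Irf4, 14.7% and 18.3% for Itgam, and 29.5% and 36.4% for Sirpa. Cells with Cd79a, a B cell gene, showed these RNAs in 21.8%, 3.07% and 14.0% at a median of 1891 UMIs, against 7751 UMIs in members. Because 52 members had fewer than 3 lectin UMIs, the name cDC2 stands here for the gate and not for a lineage.

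Summed markers of alveolar macrophages were lower in members than below the cut, while those of monocytes and interstitial macrophages spanned the values below it. The rule limited C1qa, C1qb, C1qc, Chil3, Ear1, Krt79, Cd79a and Cd3g in both classes. Low macrophage, B cell and T cell sums were thus partly fixed by the selection. Of 12 classical monocyte markers, all detected in members, the summed level was 1002 to 3383 CPM in the 4 member libraries and 1411 to 1947 CPM in the cells below the cut, and it was higher in the tolerance members (3368 CPM) than in the asthma members (1509.6 CPM). Of the 14 interstitial macrophage markers, Pf4, Cd163, Folr2 and Lyve1 were at 0 UMIs in members, and the sum was 277 to 705 CPM in the 4 member libraries and 335 to 443 CPM in the cells below the cut. Of 12 nonclassical monocyte markers Ceacam1 was at 0, with a sum of 111 to 512 CPM in the 4 member libraries and 258 to 371 CPM in the cells below the cut. Interstitial macrophage markers summed to 191 CPM in lectin and 641 CPM in Ms4a4c-gated members, against 348 and 686 CPM in cells of the same kind below the cut. For nonclassical monocyte markers the sums were 131 and 453 against 219 and 1102 CPM. Of 12 alveolar macrophage markers Marco, Siglecf, Fabp1 and Cidec were at 0, and the sum was 161 to 429 CPM in the 4 member libraries and 567 to 727 CPM in the cells below the cut. Of the 6 B cell markers 4 were at 0, Cd79b, Ighd and Iglc2 among them, 8 of the 9 T cell and NK cell markers were at 0, and of the 6 neutrophil markers Retnlg and Ngp were. Their summed levels were at most 95.4, 22.2 and 95.4 CPM in a member library. Of 8 plasmacytoid DC markers, Dntt was at 0 and Irf7, itself induced by interferon, made up most of the sum. Of the compared genes of these lists Ly6c2, Irf7 and Cd63 were called higher by the rule given next, and Fn1, Ear2, Lpl and Plet1 lower.

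Across the genes outside and inside the rule, members differed from the cells below the cut of their own pool far more often upward than downward. Of 4229 genes with a mean level of at least 30 CPM, 260 (6.15%) were at least 2-fold higher in members in both pools, which is the rule used for a call here, and 58 (1.37%) were at least 2-fold lower. Of these, 253 and 56 had the same direction in all 4 libraries, which the call makes likely because each pool sum is its 2 lanes added. Where a gene is said below not to overlap between member libraries and the others, this describes that gene only. The share of all compared genes without overlap is not given. The median log2 fold of all genes was -0.08 in asthma and -0.06 in tolerance. Because the added UMI weighs more in the smaller sum of the members, the split was 241 higher and 64 lower when UMIs were added in proportion to the totals. Of the 260 genes, 73 belong to the lists of interferon-linked genes, the rule genes included. The lists and the cells were chosen with the same RNA in view, so the counts describe the members and support nothing beyond that.

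Antiviral effector genes made up the largest group. Of 46 compared, 43 were called higher and 0 lower, with median log2 folds of 2.68 in asthma and 2.47 in tolerance. Oasl1, an oligoadenylate synthetase-like inhibitor of Irf7 translation, stood at 419.7, 250, 249 and 321 CPM in members and 4.71, 3.86, 4.35 and 5.62 CPM below the cut, with log2 folds of 6.15 and 5.76. All 4 member libraries lay above all others. Mx1, which encodes a dynamin-like GTPase, stood at 286, 178, 139.9 and 241 against 10.0 to 15.2 CPM (4.15 and 3.91), and Isg20, an exonuclease gene, at 467, 533, 415 and 485 against 21.9 to 40.3 CPM (3.90 and 4.31). For both the member libraries were again all higher. Cmpk2, the genomic neighbour of Rsad2, reached 4.91 and 4.23, Slfn1 4.35 and 4.16, and Ifi44 4.75 and 5.03 on the log2 scale. Ifit3b is a near copy of Ifit3, and how UMIs were split between the pair is uncertain. Trim25, Ifitm1 and Ifitm2 were compared and not called, and Ifi44l was at 0.

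Nucleic acid sensors followed, with 12 of 17 compared genes higher, 0 lower and median log2 folds of 2.60 in asthma and 2.51 in tolerance. Ddx58 encodes RIG-I, a cytosolic sensor of viral RNA, and stood at 229, 200, 171 and 256 CPM against 20.1 to 28.2 CPM (3.17 and 3.28). Ifih1, which encodes the RNA sensor MDA5, stood at 305, 311, 207 and 332 against 24.7 to 40.5 CPM (3.22 and 3.05), and Zbp1, a sensor of Z-form nucleic acid, at 534, 544, 580.3 and 573 against 69.7 to 86.8 CPM (2.79 and 3.01). None of these 3 genes overlapped between members and the cells below the cut. The genes of the Ifi200 cluster, which share sequence so that their counts are less certain, were called too, with Ifi205 at 3.89 and 4.33 and Ifi204 at 3.86 and 3.84. Of the Toll-like receptors, Tlr8 was at 0 in members.

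Of 18 genes of interferon signalling, 6 were higher and 0 lower, with medians of 0.74 in asthma and 0.49 in tolerance. Irf7, the transcription factor that amplifies type I interferon production, stood at 954, 1372, 1430.0 and 1424 CPM in members against 129, 100.4, 129.9 and 100.1 CPM below the cut and 28.3 CPM in control cDC2 (log2 folds 3.44 and 3.66). The 4 member libraries all lay above the others. Stat2 reached 2.39 and 2.32 and Socs1, which inhibits JAK kinases, 2.02 and 2.55. Irf1 (1.76 and 1.45) and Il10rb (1.26 and 1.01), a chain of the type III interferon receptor, were called as well. Ifnar1, a chain of the type I interferon receptor, reached 1.03 and 0.91 and Irf9 1.01 and 0.83, both just short of a call. The 19 genes of interferons themselves, Ifnb1, Ifng and 17 others, were all at 0 UMIs among the 739761 UMIs of members, which allows up to 4.06 CPM for each, and their sum in control cDC2 was 2.02 CPM.

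All 6 compared GTPases were called, with medians of 3.24 in asthma and 2.93 in tolerance. Gbp2, a guanylate-binding protein that attacks the vacuoles of intracellular pathogens, stood at 629.6, 294, 295 and 256 CPM in members and 26.2, 28.6, 16.7 and 31.5 CPM below the cut (3.92 and 3.44). Asthma lane 1 was the highest and all member libraries lay above the rest. Of the immunity-related GTPases, Igtp reached 3.24 and 3.51, Ifi47 3.397 and 3.18 and Irgm1 3.25 and 2.63. The 12 others of the list were under 30 CPM on average and not compared, with Gbp2b and Gbp10 at 0 in members.

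**Figure D2:**
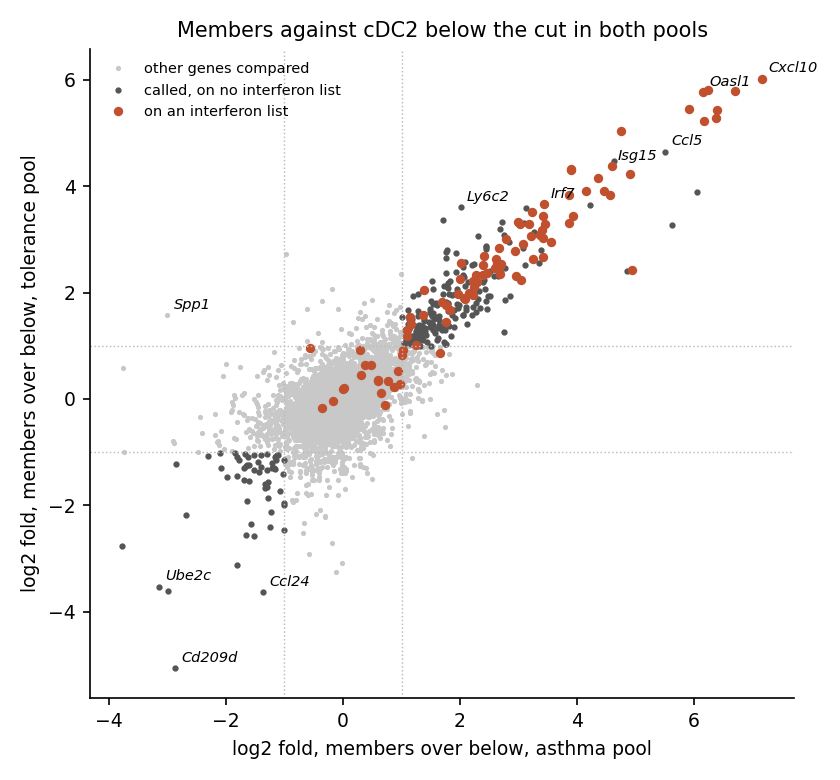
Log2 fold of members over cells below the cut for each of 4229 genes, in the asthma pool on the horizontal axis and the tolerance pool on the vertical axis, with genes of the interferon lists in red, other called genes in dark grey and dotted lines at 2-fold. Most genes of these lists lie in the upper right, where the rule genes, which selected the members, are also found.

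Fcgr1, which the rule did not use, was higher in members in every library. It stood at 191, 233, 238 and 332 CPM in members and 23.01, 21.6, 35.6 and 32.6 CPM below the cut, with 36.3 CPM in control cDC2 and log2 folds of 3.30 and 3.11. No member library overlapped with the others. An Fcgr1 UMI was found in 56.8% of members (interval 46.3% to 67.0%), 11.7% of cells below the cut and 1.37% of cells with Cd79a. Thinned to 2000 UMIs, the shares were 36.8% and 4.46%, and 0 of 129 deep enough Cd79a cells, which allows up to 2.33%. The DC gate excluded cells with CD64 protein, the product of Fcgr1, and cells are not assigned to the DC or the macrophage sort here. Fcgr1 was the 1 Fc receptor gene of 5 compared that was called, and the gene lies at chr3:96282909-96293969 on the minus strand (GENCODE M21, GRCm38). Fcgr3 stood at 19.1, 61.1, 119 and 84.0 against 97.3 to 128 CPM and Fcgr2b, the inhibitory receptor, at 134, 183, 347 and 122 against 213 to 264 CPM, with overlap for both.

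Among 12 chemokine genes outside the rule, 2 were higher and 2 lower. Cxcl9, which shares the receptor CXCR3 with Cxcl10, stood at 801, 494, 1368 and 588 CPM in members and 58.1, 66.8, 87.1 and 118 CPM below the cut, with 8.08 CPM in control cDC2 (log2 folds 3.27 and 3.13). Ccl5, which attracts T cells, stood at 1030.2, 450.0, 161 and 374 against 9.43 to 15.8 CPM (5.51 and 4.65). Both were concentrated in few cells, since 5 members held 50.3% of the 591 Cxcl9 UMIs and 60.1% of the 318 Ccl5 UMIs, and 55 and 70 members had none. By contrast 5 members held 30.8% of the Fcgr1 UMIs and 18.4% of the Isg15 UMIs. Ccl17, a ligand of CCR4 that attracts Th2 cells, was lower at 515, 400.0, 746 and 996 against 2486, 1999, 2268 and 1580.5 CPM (-2.31 and -1.08), and Ccl24, an eosinophil-attracting chemokine, at 935, 722, 57.0 and 57.3 against 2020.4, 2118, 809 and 675 CPM (-1.37 and -3.63). Ccl24 in asthma members overlapped with the tolerance cells below the cut, and was at 1.01 CPM in control cDC2. A Ccl17 UMI was found in 11 of 37 asthma and 14 of 58 tolerance members, and 1 cell of each pool held 31.0% and 51.1% of these UMIs. Ccl17 was not called within either way through the gate and Ccl24 only among cells with lectins.

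Some MHC class I genes were higher and no MHC class II gene was called. Of 20 genes of class I and peptide loading 6 were called higher and 0 lower, with medians of 0.85 in asthma and 1.05 in tolerance, and of 11 class II genes 0 were called, with medians of 0.17 in asthma and -0.04 in tolerance. H2-T22, a nonclassical class I gene, reached 2.13 and 2.20, and Nlrc5, the transactivator of class I genes, 1.82 and 1.97. Tap1, which carries peptides into the endoplasmic reticulum, stood at 525, 489, 591 and 489 CPM against 189 to 219 CPM (1.35 and 1.37). B2m, the light chain of class I molecules, stood at 3615, 2878, 3958 and 3440.0 against 1659 to 1724 CPM, with every member library above the others but log2 folds of 0.89 and 1.13. H2-Aa, a class II chain, stood at 12925, 11639, 11259 and 10545 against 8758 to 9388 CPM (0.45 and 0.21). Near copies among the class I genes make the values of single members less certain.

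Of 13 compared costimulation and checkpoint genes, 5 were called higher and 1 lower. Cd40, the receptor for CD40L of T cells, stood at 439, 494, 326 and 393 CPM against 103, 90.0, 80.5 and 96.1 CPM below the cut and 26.2 CPM in control cDC2 (log2 folds 2.32 and 2.03). Cd86, a ligand of CD28, stood at 496, 444, 425 and 477 against 97.8 to 142 CPM (1.87 and 1.96). Cd274, which encodes the inhibitory ligand PD-L1, stood at 219, 211, 161 and 210.0 against 30.4 to 55.2 CPM (2.07 and 2.30). Cd40, Cd86 and genes of inhibitory ligands were thus all higher, the last with Pdcd1lg2 (PD-L2, 1.53 and 1.29) and Lgals9 (galectin-9, 1.79 and 1.79). Tnfsf9, which encodes a costimulatory ligand, went opposite ways in the pools and was not called. Cd200r1, an inhibitory receptor, was lower at 9.54, 50, 15.5 and 30.5 against 86.5 to 105 CPM (-1.29 and -1.86). Of 5 compared cytokine genes only Il1rn, the antagonist of the IL-1 receptor, was called, at 391, 283, 104 and 221 against 43.9 to 47.2 CPM (2.85 and 1.93), while Il1b stood at 1154, 1200, 1109 and 2142 against 1279 to 1496 CPM. Il10 was at 0 in members.

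Other groups held some higher genes. Of 11 interferon-linked surface and enzyme genes 7 were called, among them Ly6a (Sca-1) at 1746, 867, 1518 and 1840.2 against 119.8 to 159 CPM (3.12 and 3.59), and Nampt, an enzyme of NAD synthesis, at 2.11 and 1.73. Acod1, which makes itaconate, was called at 229, 0, 41.5 and 34.4 against 1.16 to 5.80 CPM, but all 24 of its asthma UMIs lay in 1 cell. Of 13 cell death genes, Daxx (3.35 and 2.55) and the inflammatory caspases Casp4 (2.43 and 2.06) and Casp1 (1.37 and 1.30) were called. Of 17 NF-kB and TNF response genes, Marcksl1 (1.65 and 1.39) and Traf1 (1.08 and 1.13) were called, with list medians of 0.60 in asthma and 0.57 in tolerance, and of the DC genes Relb, an NF-kB subunit, was (1.26 and 1.23). None of 12 immediate-early genes, which cell dissociation induces, were called, and their medians were -0.02 in asthma and -0.06 in tolerance. Outside the lists, Ifi206, Sct, which encodes secretin, and Fam26f were among the 20 highest genes, with Sct at 9.54, 222, 36.3 and 34.4 against 0.562 to 4.35 CPM.

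**Figure D3:**
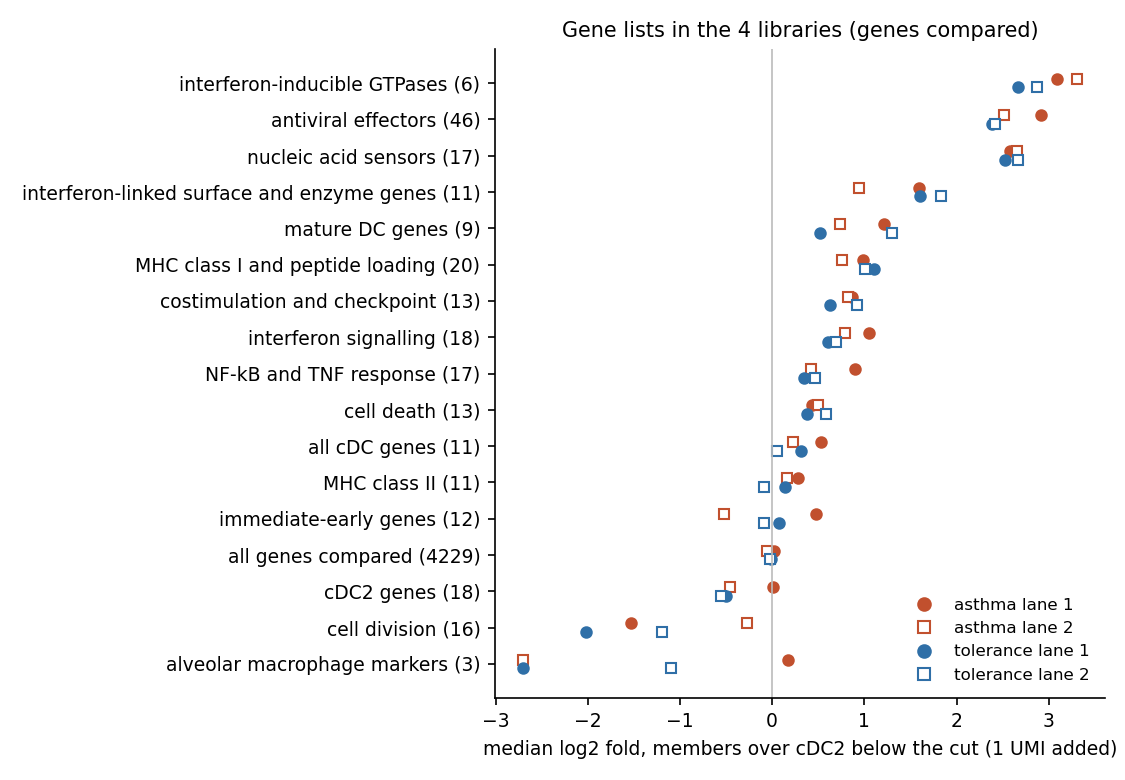
Median log2 fold of each gene list, members over cells below the cut, for 16 lists and for all genes compared, as 1 point for each of the 4 libraries that hold members, with the number of compared genes beside each list and a line at 0. Antiviral effectors, sensors and GTPases lie above 2 in all 4 libraries, MHC class II lies near the line, and cell division lies below it in all 4 libraries.

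The lower genes included lectins of cDC2 and genes of alternative activation. Of 18 cDC2 genes 0 were higher and 5 lower, with medians of -0.40 in asthma and -0.42 in tolerance. Cd209d, a paralog of Cd209a, stood at 9.54, 27.8, 10.4 and 0 CPM in members and 149, 203, 192 and 242 CPM below the cut, and was 50 (95% interval 13.8 to 414) times lower in tolerance, from 2 UMIs. Cd209e stood at 0, 22.2, 10.4 and 0 against 112, 159.9, 86.3 and 74.8 CPM, with 2 of the member libraries at 0, and reads shared among Cd209 paralogs leave both uncertain. Retnla, the alternative activation gene that encodes RELM-alpha, stood at 19.1, 16.7, 15.5 and 30.5 against 279, 293, 126 and 218 CPM (-3.77 and -2.75). Its level was lower in members, but the share of cells with a Retnla UMI was not clearly so. That share was 10.5% in members and 6.92% below the cut, and 3.16% and 3.94% after thinning, with overlapping intervals both times. Mgl2, a gate gene and so not independent of the rule, stood at 591, 772, 176 and 466 against 1243 to 1478 CPM. Clec4a2, at 9.54, 5.56, 31.1 and 49.6 against 69.9 to 104 CPM, Clec4b1 (-1.21 and -1.30) and Trf, which encodes transferrin (-1.65 and -2.55), completed the cDC2 genes called lower. Of 9 alternative activation genes, 3 were lower (Retnla, Mgl2 and Ccl24) and 2 higher (Pdcd1lg2 and Socs2). Of 11 genes shared by conventional DCs, Bcl11a was lower (-1.14 and -1.06), and of 7 cDC1 genes Cd24a (-2.10 and -1.02) and Sept3 were lower and 0 higher. Fn1, the gene of fibronectin, stood at 0, 44.4, 114 and 11.5 against 200.02 to 293 CPM (-2.68 and -2.18). Of the 58 lower genes, 34 could be compared within both ways through the gate and 1 was lower in both. The number of lower genes was 34 when the cells below the cut were weighted to the mix of lectin and Ms4a4c-gated cells found in members, and 14 when 5 UMIs were added to each sum.

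Of 16 compared cell division genes, 5 were called lower and 0 higher, with medians of -0.44 in asthma and -1.36 in tolerance. Mki67, a marker of cycling cells, stood at 9.54, 27.8, 15.5 and 53.5 CPM in members and 52.3, 83.0, 69.7 and 122 CPM below the cut (-1.51 and -1.33). Ube2c, which drives mitotic exit, stood at 0, 5.56, 0 and 11.5 against 59.5 to 133 CPM and was 17.7 (95% interval 3.15 to 702) times lower in asthma, from 1 UMI, and 15.3 (95% interval 5.196 to 74.7) times lower in tolerance, from 3 UMIs. The replication genes Mcm2 (9.54, 11.1, 15.5 and 26.7 against 31.4 to 54.4 CPM) and Mcm5 (-1.60 and -1.23) and the mitotic gene Birc5 (-1.01 and -1.96) were the others. Asthma lane 2 stood apart. A single cell there held 18 of the 23 Top2a UMIs of the asthma members (78.3%), and a single cell held 29 of their 40 Pclaf UMIs (72.5%). The list's medians by library were -1.53, -0.27, -2.02 and -1.20, and without lane 2 the mean over the pools was -1.80. Among cells with lectins 11 of 15 compared genes were called lower, and among Ms4a4c-gated cells 0 of 15.

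Along the interferon score some genes stood higher from bin to bin and others did not. The cDC2 of the asthma and tolerance pools were divided at scores of 0, 5, 10, 20, 40 and 100 per 10000 into 7 bins of 562, 278, 79, 64, 38, 38 and 19 cells, the first with no UMI of the 6 genes and the last 3 holding the members. Fcgr1 stood at 13.4, 23.8, 80.7, 96.6, 119, 218 and 644 CPM in these bins, and so was already higher in the 64 cells just below the cut than in those without the 6 RNAs. Irf7 stood at 60.7, 100.2, 239, 475, 856, 1500.2 and 2012 CPM and Cd40 at 86.4, 81.3, 107, 189, 329.7, 359 and 657 CPM, so Cd40 was level in the first bins and higher from the fourth on. H2-K1, a classical class I gene chosen after its values were seen, ran from 1236 to 2825 CPM and H2-Aa from 8920.4 to 11871 CPM. Zbtb46 stood at 39.6, 34.9, 45.6, 45.2, 40.8, 36.9 and 27.1 CPM, with no order. Cd209a, a gate gene, stood at 971, 636, 613, 364, 218, 329 and 386 CPM and was highest in cells without the 6 RNAs. Cd209d stood at 282, 85.8, 73.7, 160.3, 6.80, 20.1 and 0 CPM, so it was low in all 3 bins of members. The bins mix both ways through the gate. Below the cut, Cd209d was found in 29.2% of cells with at least 3 lectin UMIs and 3.33% of Ms4a4c-gated cells, and Cd209a in 73.7% and 20.8%. Among members the shares were 14.0% and 1.92% for Cd209d and 60.5% and 17.3% for Cd209a. The part of the gate mix in both courses was not tested. The bins draw on the same 4 libraries, and the last rests on 19 cells.

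**Figure D4:**
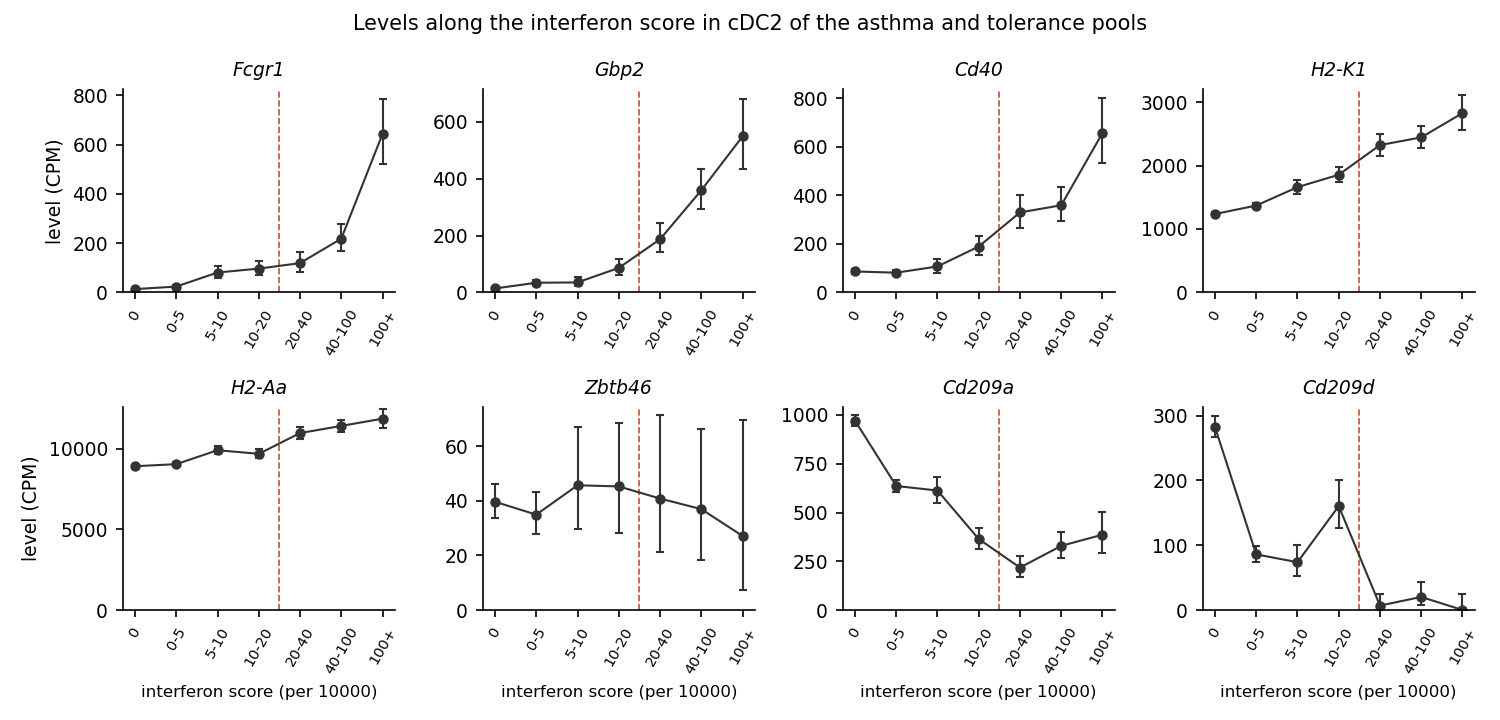
Level in CPM of 8 genes against the interferon score in 7 bins for cDC2 of the asthma and tolerance pools, with exact Poisson 95% intervals and the cut at 20 per 10000 as a dashed line. Fcgr1, Gbp2, Cd40 and H2-K1 are higher toward high scores, H2-Aa less so, Zbtb46 keeps a flat course within its intervals, and Cd209a and Cd209d are highest in the bin without interferon UMIs. Each bin mixes cells of both ways through the gate.

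Genes were also called within each way through the gate. Among cells with at least 3 lectin UMIs, 265 of 4126 genes (6.42%) were higher in members in both pools and 93 (2.25%) lower, and among Ms4a4c-gated cells 195 of 4294 (4.54%) were higher and 39 (0.908%) lower. Of the 260 genes higher over all members, 233 were compared both ways and 120 were higher in both. Antiviral effectors were called for 42 of 45 and 33 of 46 compared genes. Fcgr1 stood at 225 and 299 CPM in lectin and Ms4a4c-gated members, against 22.8 and 61.4 CPM in the cells of the same kind below the cut. Cd40 (484 and 337 against 90.1 and 115 CPM), Cd274 (188 and 209 against 43.6 and 68.5 CPM) and Cxcl9 (689 and 899 against 76.3 and 111 CPM) were higher in members of both kinds.

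Lectin and Ms4a4c-gated members differed from each other in Cxcl10 and in genes of DCs and monocytes. Cxcl10, a rule gene, stood at 3256 and 909 CPM in the 2 kinds of members, with medians of 5 and 0 UMIs per cell. The 5 highest cells of each kind held 60.4% and 52.1% of its UMIs. Ccl22, a ligand of CCR4 made by DCs, stood at 433 and 10.3 CPM in the same order. A single lectin member held 90 of the 152 Ccl22 UMIs of its kind, and without this cell the level was 182 CPM. Ly6c2, which encodes the monocyte protein Ly6C, was higher in Ms4a4c-gated members, at 82.5 and 662 CPM against 20.8 and 119 CPM in cells of the same kind below the cut. Irf8, a transcription factor of cDC1, plasmacytoid cells and monocytes, stood at 76.8 and 234 CPM against 52.1 and 188 CPM. For Irf8 the Ms4a4c-gated cells were higher than the lectin cells on both sides of the cut. An Irf8 UMI was found in 38.9% of members and 14.95% of cells below the cut (15.8% and 6.53% after thinning), and in 34.2% of Ms4a4c-gated cells below the cut. Zbtb46 stood at 37.0 and 36.0 CPM and Flt3 at 56.9 and 64.4 CPM, so these DC genes differed little between the kinds. The part of monocyte-derived cells in the members was not tested.

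**Figure D5:**
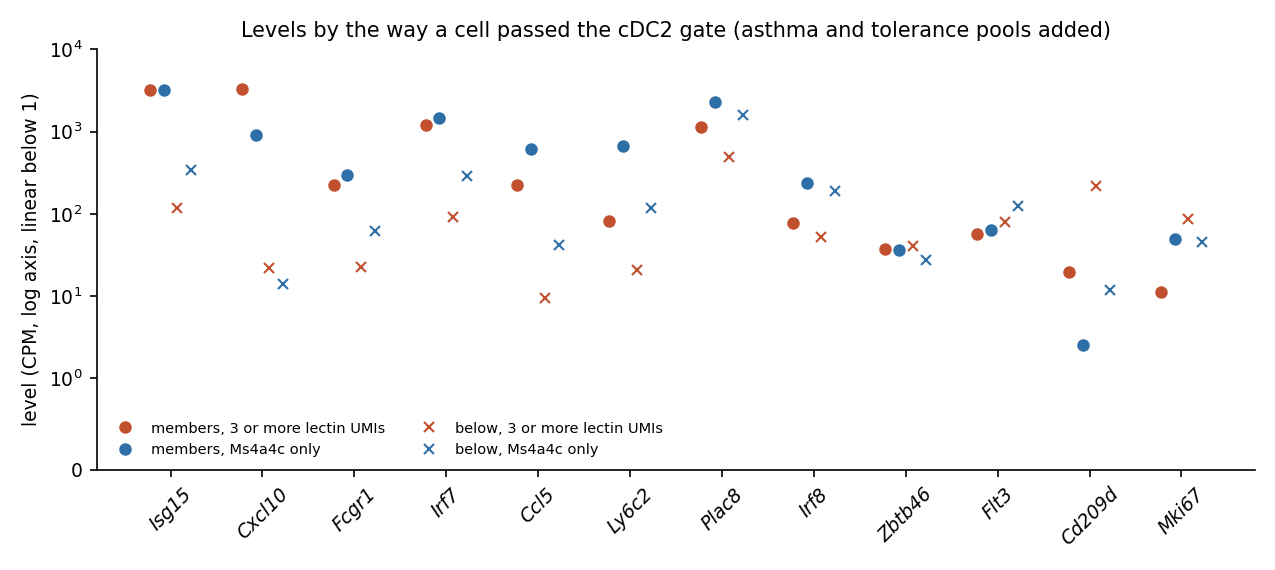
Level in CPM of 12 genes in members (dots) and in cells below the cut (crosses), for cells with at least 3 lectin UMIs (red) and cells that passed only with Ms4a4c (blue), asthma and tolerance pools added, on an axis that is logarithmic above 1 CPM and without error bars. Fcgr1 and Irf7 are higher in members of both kinds, Ly6c2 and Irf8 are higher in the Ms4a4c-gated cells on both sides of the cut, and the levels of Zbtb46 in the 4 classes lie close together.

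Genes of mature, migratory DCs were found in a subset of the members. Ccr7 encodes a chemokine receptor of DCs that travel to the lymph node, and stood at 419.7, 450.0, 187 and 290.2 CPM in members and 35.6, 90.4, 34.8 and 16.3 CPM below the cut (2.72 and 3.33), with no overlap. It was 1 of 3 genes called higher among 9 compared genes of mature DCs, with Socs2 and Birc2, and 1 of 2 among 6 chemokine receptors, with Ccrl2. The rule removes cells with an Fscn1 UMI, another gene of mature DCs. A Ccr7 UMI was found in 25 members (26.3%, against 6.92% of cells below the cut), 13 of them lectin members. These 25 cells stood at 718 CPM for Ccl22 (286 CPM without the cell that held 90 of their 145 UMIs) against 20.5 CPM in the other 70 members, and at 1208 against 238 CPM for Il4i1, which encodes an amino acid oxidase. Cells below the cut with and without Ccr7 differed in the same direction, with Ccl22 at 720 and 31.3 CPM and Il4i1 at 817 and 282 CPM. In members with and without Ccr7, Cd40 stood at 555 and 351 CPM and Fcgr1 at 178 and 296 CPM. Members without Ccr7 thus held both Fcgr1 and Cd40 above the 28.6 and 82.2 CPM of Ccr7-negative cells below the cut. With the Ccr7-positive cells left out of both sides, an alternative chosen after seeing the data, 36 genes were called lower in place of 58, and 211 of the 260 higher genes kept their call.

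Members of the tolerance and the asthma pool were compared directly, without a test. Of 4043 genes, 132 (3.26%) were at least 2-fold higher in tolerance with the same direction in both lanes, and 130 (3.22%) lower. Lane 1 alone gave 248 and 419 and lane 2 alone 236 and 242, without the match between lanes and from fewer UMIs. The balance of the directions moved with the setting, since 49 were higher and 108 lower with 5 UMIs added and 285 and 379 with each cell thinned to 2000 UMIs. The median fold of antiviral effectors between the pools was -0.00369 on the log2 scale (tolerance over asthma) in members and 0.11 below the cut, and 1 of 48 was called higher and 0 lower. Ly6c2 stood at 85.8, 77.8, 446 and 676 CPM in members and 23.01, 18.9, 64.6 and 34.3 CPM below the cut, with 112 CPM in control cDC2, and so was higher in both tolerance lanes than in both asthma lanes. The sort gate excluded cells with Ly6C protein, and the UMIs came from 10 of 37 asthma and 20 of 58 tolerance members. The same order held for Lyz2 at 286, 122, 1347 and 1145 CPM, found in 22 of 37 asthma and 36 of 58 tolerance members, and Lst1 at 66.8, 33.3, 249 and 339.8 CPM, found in 9 and 28. Tolerance members held the larger share of Ms4a4c-gated cells, 36 of 58 against 16 of 37 in asthma, and the part of this mix in the differences was not tested.

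Several of the genes with the largest differences rested on 1 cell. Of the 137 Spp1 UMIs of tolerance members 100 lay in 1 cell (73.0%), as did 106 of 231 Cxcl2 UMIs (45.9%), 21 of 40 Ccl12 UMIs (52.5%) and 24 of 61 Ccl2 UMIs (39.3%). Ccl12 and Gclc were at 0 UMIs in asthma members. On the other side, Ccl24 was higher in asthma members at 935, 722, 57.0 and 57.3 CPM, and its level below the cut was also higher in asthma, at 2076 and 733 CPM. Mrc1, which encodes the mannose receptor CD206, stood at 85.8, 111, 36.3 and 0 CPM in members, and Itgae, which encodes CD103, at 95.4, 83.3, 15.5 and 19.1 CPM. For both the 2 asthma lanes lay above the 2 tolerance lanes.

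The CLEC12A antibody tag, a surface protein readout that the rule did not use, did not separate members from the other cDC2. Its median was 27 tag UMIs per member in asthma and 31.5 in tolerance, against 30 and 29 below the cut. By library the members had medians of 27, 29, 30.5 and 32 and the cells below the cut 28.0, 33.0, 27.5 and 32.0, so the ranges overlapped. Control cDC2 had a median of 61, above all of these. Clec12a RNA stood at 286, 100, 57.0 and 34.4 CPM in members and 46.7 to 68.6 CPM below the cut, with both asthma lanes above and both tolerance lanes below the cells of their own library. Of the 30 Clec12a UMIs of asthma lane 1, 24 lay in 1 cell, and without it the lane stood at 64.9 CPM, within the range below the cut.

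The response element shown in the promoters of Ifit3, Isg15 and Cxcl10 was searched in all promoters of the RefSeq table, 300 bases each, on both strands. It was present in 3.44% of 32851 promoters and in 5.40% of those of the compared genes (182 of 3372 with a promoter in the table). Of the genes called higher in members 24.9% held it (51 of 205), of those called lower 4.76% (2 of 42), and of those called higher in both ways through the gate 40.6% (39 of 96). It was in 5 of the 6 rule genes and in 10 of 11 GTPases of the list with a promoter. The 6 rule genes selected the members and are counted in both sets of higher genes, so a part of those shares was fixed by the selection. A match is a description of the letters in the window, and Oasl1, Irf7 and Cxcl9, which were among the genes called higher, had 0 matches there.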

How the data were processed

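Lung cells of 3 treatments, 1 pool of mice each, were counted on 2 lanes, giving 6 matrices. The deposited values are integer UMI counts per gene and barcode, made by the authors in Cell Ranger 3.1.0, which aligns with STAR, on build mm10, and Seurat 3.1.5 was used for the hashtags. UMI counts remove amplification duplicates, but reads that match several paralogs can be lost or split. No matrix was left without a sample. The files hold 31053 genes, of which 31011 matched GENCODE M21 (GRCm38), and promoters came from RefSeq (GRCm38.p6).

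Cells were selected by the rule given at the start. The study states a floor on genes per cell that could not be applied, so 500 was used and 1200 was an alternative. Python 3.11.15 with NumPy 2.4.6, pandas 2.3.3, SciPy 1.17.1, scanpy 1.11.5 and matplotlib 3.10.9 was used. Scrublet, as run in scanpy, marked 41 cells by its own threshold and these were kept, and removal of the cells with the highest 2% of scores was an alternative. UMIs were summed per class and library or pool and scaled to CPM. A gene was called at 2-fold or more in the same direction in both pools (between pools, in both lanes), with 1 UMI added to each sum and a mean of at least 30 CPM. 1 UMI is worth 3.51 CPM in asthma members and 0.222 CPM below the cut, and 2.20 and 0.317 CPM in tolerance. Shares have Clopper-Pearson, sums exact Poisson and ratios exact conditional intervals at 95%. For a class with 0 UMIs of a gene the limit is that of 3 counts. The folds and calls of members against cells below the cut were tested on simulated sums without variation between cells, and the thinning was checked on a part of the cells. The selection rule, the calls between pools, the intervals and the promoter search were not simulated.

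The members and the gene lists were chosen with earlier results of these data known. Genes were named from the markers, up to 8 per list by the smaller of the 2 pool folds with any at 0, the 20 highest and 20 lowest genes, and the 10 highest and 10 lowest between the pools. A gene outside this rule, such as H2-K1, Il1b, Fcgr2b and Fcgr3, was chosen after its values were seen. Mx2, Gm4955 and Cxcl11 matched no symbol. RNA velocity and clustering were not used here, and some genes are not reported here. Alternatives changed the cut, the gate, depth, doublets, lanes, level and added UMIs.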

Additional observations from a re-analysis of the deposited data

Results flagged for a closer look

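In 9 of the 322 named genes that were compared, both asthma libraries moved one way between members and the cells below the cut and both tolerance libraries the opposite way. The difference between the pools was not tested, since each pool is 1 sample. Timd4, Snx12 and Zbtb8os were named only because they differed most between tolerance and asthma members, and Ccl2 was among those genes too. Their place here is thus not independent of that choice. The share of such genes among all compared genes is not given. Values are the tolerance minus the asthma log2 fold, each of members over cells below the cut.

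Tolerance was higher for Ccl2, a chemokine of monocytes, with a difference of 3.70. Its asthma members held 3 UMIs and stood at a ratio of 0.385 (95% interval 0.0784 to 1.15) to the cells below, and 24 of the 61 tolerance UMIs lay in 1 cell. The difference was 2.66 for Timd4, a receptor for phosphatidylserine, where asthma members held 2 UMIs (ratio 0.167 (95% interval 0.0201 to 0.613)) and 7 of 26 tolerance UMIs lay in 1 cell. Gngt2, a G protein subunit on the nonclassical monocyte list, differed by 1.27 (-0.34 and 0.93 in asthma and tolerance) and Ms4a6d by 0.24 (-0.06 and 0.18).

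Asthma was higher for Snx12, a sorting nexin, with a difference of -2.28 (1.17 and -1.10), for Clec12a, the gene of the receptor read by the antibody tag, with -2.27 (1.75 and -0.52, where 24 of the 48 asthma UMIs lay in 1 cell), and for Zbtb8os with -2.02 (0.50 and -1.51). Tnfsf9, the ligand of the costimulatory receptor 4-1BB, differed by -1.69 (0.81 and -0.88) and Notch2, a receptor needed by a part of the cDC2, by -0.61 (0.12 and -0.48).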

How the results depend on the processing

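Among the named genes and the 11 gene lists recomputed, no called gene and no list median, taken as the mean over the pools, changed sign. Of all called genes 253 of 260 higher and 56 of 58 lower kept their direction in all 4 libraries. A call of 2-fold in both pools, each the sum of its 2 lanes, makes this agreement likely beforehand. The immediate-early median, not among these lists, was 0.48 and 0.07 in lane 1. The sign did change for the CLEC12A tag difference in both pools and for the folds of genes such as Ccl22, Zbtb46, Flt3, Klrd1 and Il4i1, none of them called. Of the recomputed summary values 240 stayed within 1.5 times the count or 1 spread of the reported value and 63 moved, and of the values of single genes 1194 stayed and 132 moved. Medians are means over the pools on the log2 scale. With a cut of 10 there were 163 members, which were 2.38% of control, 11.9% of asthma and 18.9% of tolerance cDC2, 32 lower genes, 63 and 75 genes higher and lower in tolerance members, and medians of 2.34 for sensors, 2.79 for GTPases and 0.54 for costimulation. With a cut of 40 there were 57 members, 3.29% of asthma and 8.18% of tolerance cDC2, 205 and 234 genes between the pools, and medians of 2.72 and 3.47 for sensors and GTPases. The CLEC12A median of members minus that below the cut, reported as -3 in asthma and 2.5 in tolerance, was 0.5 (asthma) at 10, and 1 (asthma) and -7 (tolerance) at 40. Without Ms4a4c in the gate there were 43 members (3.75% and 6.36%), 93 lower genes, 208 lower in tolerance members, and medians of 2.86 for sensors, 3.51 for GTPases, 0.78 for MHC class I, 0.23 for class II and -1.89 for cell division. A minimum of 10 CPM gave 142 lower genes and 384 and 408 between the pools, and 100 CPM gave 131 higher, 13 lower, 27 and 18 between the pools, and medians of 3.01 for sensors and 1.41 for costimulation. With 5 UMIs added 14 genes were lower and 49 higher in tolerance members. Thinned to 2000 UMIs per cell, 285 and 379 genes differed between the pools and medians were 0.86 for signalling, 3.45 for GTPases and 0.93 for costimulation. Chosen after seeing the data, a matched gate mix gave 34 lower genes and medians of 2.22 for antiviral effectors, 2.24 for sensors and 0.70 for MHC class I, and leaving out cells with Ccr7 gave 36 lower genes and 203 lower in tolerance members. With 1 lane at a time the values ran from 45 to 50 members, 236 to 248 and 242 to 419 genes between the pools, 0 to 3 for the tolerance tag difference, and medians of 2.55 to 2.66 for sensors, 0.74 to 0.83 for signalling, 0.14 to 0.42 for genes of all conventional DCs and -1.80 to -0.74 for cell division. Fewer cells or lanes leave fewer UMIs per sum, and other causes were not tested. No paired analysis was possible because each treatment is 1 pool of mice, and the 2 lanes are technical. Depth limits genes with few UMIs in members.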

Other observations

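High interferon scores were also found outside the gate. Among cells with at least 10 UMIs per 10000 of the alveolar macrophage genes Chil3, Ear1 and Krt79, and with the other exclusions unchanged, 100 asthma, 93 tolerance and 1 control cell passed the same cut, against 1744, 853 and 2456 below it. In these cells Cxcl10 stood at 884 against 8.67 CPM below the cut, Oasl1 at 147 against 7.78 CPM, Irf7 at 653 against 92.5 CPM and Gbp2 at 599 against 124 CPM. Fcgr1 stood at 228 against 64.8 CPM, so it was higher past the cut in alveolar cells too, with log2 folds of 1.85 in asthma and 1.65 in tolerance, against 3.30 and 3.11 in members. The difference between the cell types was not tested.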
